A study of Mus musculus with 6 samples.

Results

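Stra8-positive differentiating spermatogonia made up 176 of the 54253 deposited cell barcodes of 6 testis libraries, and were picked out barcode by barcode from raw counts of unique molecular identifiers (UMIs, 1 per captured RNA molecule). A barcode was counted as a member when at most 20% of its UMIs came from mitochondrially encoded genes, when it held at least 4000 UMIs and at least 1 UMI of Stra8, and when 8 spermatogonial genes (Uchl1, Crabp1, Sohlh1, Dmrt1, Sall4, Rhox13, Gfra1 and Zbtb16) gave it at least 4 UMIs from at least 3 of them. The summed UMIs of those genes also had to exceed those of 6 early meiotic genes (Prdm9, Meiob, Dmc1, Rad51ap2, Gm960 and Mei4). These counts chose the members, so they are given below as a description only. The study put male ICR mice, an outbred strain, into a chamber for 30 minutes a day over 12 weeks, and read the left testis by 10x Genomics 3' single-cell RNA sequencing after dead-cell removal. In the smoking group 15 cigarettes were burnt in each session, each with a nicotine content of 1.1 mg and a tar content of 11 mg, with a measured smoke concentration of 3.47 mg per cubic metre; control mice sat in such a chamber without smoke. Both groups were bought at 6 weeks of age and kept for 1 week before exposure, while the age label reads 8 weeks. Each group had 7 mice and 3 libraries, and the labels tie no library to a mouse, so every p-value measures the spread between libraries, which may be partly technical.

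Differentiating spermatogonia are the germ cells of the basal seminiferous epithelium that have left the stem-cell pool and divide mitotically before meiosis. Retinoic acid pushes undifferentiated spermatogonia into this state and later triggers meiotic entry, and Stra8 (stimulated by retinoic acid 8) is its best known target: the gene turns on at both steps. In preleptotene cells the STRA8 protein, working with its partner MEIOSIN, switches on meiotic prophase genes, and mitotic gene expression is wound down. Sohlh1 and Dmrt1 encode transcription factors of spermatogonia, Crabp1 a retinoic acid binding protein and Rhox13 a homeobox protein of the X chromosome.

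Promoter windows of 5 genes are printed as examples that hold a searched motif. Stra8 defines the cells. Prss50 and Syce2 were higher in the members with most Stra8, and Plk1 and Ube2c were lower there. Each window runs from 250 bases before to 50 bases after a RefSeq start site on GRCm38.p6 and is written 5′ to 3′ on the gene's strand. Capitals mark 1 of 3 motifs searched on both strands: AGGTCA, the half-site bound by retinoid receptors, in Stra8; CNCCTCAG, the motif of STRA8 itself, in Prss50 and Syce2 (where the reverse complement is what stands in the window); and TTTGAA, the cell-cycle homology region (CHR) element of many G2/M promoters, in Plk1 and, as its reverse complement, in Ube2c. The windows are chr6:34920698-34920997 for Stra8, chr9:110857714-110858013 for Prss50 (the first of 2 annotated starts), chr8:84872008-84872307 for Syce2 (the second of 2), chr7:122159185-122159484 for Plk1 and chr2:164769679-164769978 for Ube2c, all on the plus strand.
Stra8: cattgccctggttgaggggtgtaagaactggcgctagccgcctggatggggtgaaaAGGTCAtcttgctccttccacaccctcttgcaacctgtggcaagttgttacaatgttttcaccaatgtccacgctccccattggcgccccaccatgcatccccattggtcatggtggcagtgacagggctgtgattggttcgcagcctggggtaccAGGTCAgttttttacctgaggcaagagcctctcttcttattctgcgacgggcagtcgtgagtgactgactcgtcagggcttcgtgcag
Prss50: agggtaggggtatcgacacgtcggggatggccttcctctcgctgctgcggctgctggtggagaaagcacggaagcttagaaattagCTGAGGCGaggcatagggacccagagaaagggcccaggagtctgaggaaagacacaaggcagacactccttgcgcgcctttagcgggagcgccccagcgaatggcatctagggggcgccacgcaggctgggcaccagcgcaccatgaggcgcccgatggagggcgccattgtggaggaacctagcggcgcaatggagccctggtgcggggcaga
Syce2: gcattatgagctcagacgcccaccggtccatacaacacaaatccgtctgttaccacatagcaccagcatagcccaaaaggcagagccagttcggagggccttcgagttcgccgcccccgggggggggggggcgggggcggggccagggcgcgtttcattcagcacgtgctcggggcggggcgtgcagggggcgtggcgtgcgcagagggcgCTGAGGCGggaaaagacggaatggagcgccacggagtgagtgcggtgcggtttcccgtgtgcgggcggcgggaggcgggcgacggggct
Plk1: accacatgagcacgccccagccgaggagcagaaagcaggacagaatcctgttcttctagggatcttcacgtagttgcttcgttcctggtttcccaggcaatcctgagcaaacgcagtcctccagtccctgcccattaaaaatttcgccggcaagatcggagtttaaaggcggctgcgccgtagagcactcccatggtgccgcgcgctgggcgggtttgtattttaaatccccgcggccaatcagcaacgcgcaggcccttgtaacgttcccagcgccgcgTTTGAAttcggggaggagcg
Ube2c: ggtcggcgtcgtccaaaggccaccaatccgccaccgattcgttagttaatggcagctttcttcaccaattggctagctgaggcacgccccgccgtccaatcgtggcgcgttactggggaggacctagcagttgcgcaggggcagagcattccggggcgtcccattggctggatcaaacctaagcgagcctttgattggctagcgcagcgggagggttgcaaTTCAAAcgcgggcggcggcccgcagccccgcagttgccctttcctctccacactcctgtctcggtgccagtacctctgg
The Stra8 window held 2 retinoid receptor half-sites, whose first bases lay at −194 and −38 from the start site. The STRA8 motif began at −164 in Prss50 and at −39 in Syce2, and was not found in the other Syce2 window. The CHR element began at −29 in Ube2c and at 31 in Plk1. Over all 32851 promoter windows of the same length in the table, 16.3% held the half-site, 7.94% the STRA8 motif and 17.9% the CHR element, so a match by itself is common. A match describes letters, not a bound site. All 5 printed genes have a match, which many called genes lacked. Of 35 genes with a window that were higher in the members with most Stra8, 10 held the STRA8 motif, and Sycp3 did not.

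Members numbered 23, 41 and 22 in smoking libraries 1 to 3, and 33, 31 and 26 in control libraries 1 to 3. Their summed UMIs were 337170, 1191959 and 341074 in the smoking libraries, against 519275, 445304 and 404417 in the control libraries. Smoking library 2 thus stood apart in summed UMIs. Its median of 15651 UMIs per member was near the 15026 UMIs of control library 1. The median member held 14364.5 UMIs. Libraries shared 16 to 34 barcode sequences per pair, of the 8598 to 9976 each held. No barcode was a member in more than 1 library, and 2 members' barcodes also occurred in 1 other library.

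The label was checked against its markers. UMIs of Crabp1 were found in 88.1% of members, of Dmrt1 in 94.3%, of Sohlh1 in 76.1% and of Rhox13 in 69.9%; these genes belong to the rule. Among genes outside it, Dazl, a germ-cell RNA-binding protein, was found in 99.4% and Kit, the stem cell factor receptor that marks differentiating spermatogonia, in 67.0%. Gfra1, the GDNF co-receptor of stem cells and a rule gene, was found in 4.55%. Zbtb16 and Sall4, also rule genes, were found in more members, at 45.5% and 35.2%. Lin28a, outside the rule and listed here with undifferentiated spermatogonia, was found in 31.8%. At an equal depth of 4000 UMIs drawn from each barcode, Kit was seen in 33.5% of members, against 27.1% of the Stra8-negative spermatogonia described below, 2.59% of early meiotic barcodes, 36 of 1800 spermatid barcodes (300 a library) and 0.806% of macrophage barcodes. At that depth Dmrt1 was seen in fewer members (53.4%) than Stra8-negative spermatogonia (59.8%). Crabp1 (63.6% against 56.1%) and Sohlh1 (40.9% against 32.2%) went the other way, as did Rhox13. At full depth Dazl was also found in 99.1% of the Stra8-negative spermatogonia and 98.96% of early meiotic barcodes. Dazl thus does not set the members apart from those classes. Droplets also take up free RNA, so the background of Stra8 itself was read in cells that should lack it. By the rule every member had a Stra8 UMI, whereas 29 of 8750 spermatid barcodes (0.331%) and 1 of 248 macrophage barcodes (0.403%) with at least 4000 UMIs had one. The medians were 10964 UMIs in these spermatid and 5906.5 UMIs in these macrophage barcodes. Of the first 300 spermatid barcodes listed in each library, which were used for values at equal depth and had a median of 8132.5 UMIs, 12 of 1800 (0.667%) had a Stra8 UMI. Spermatid barcodes held at least 10 UMIs from at least 4 of 8 acrosomal and late germ-cell genes (Acrv1, Spaca1, Spaca7, Tssk1, Tssk2, Tssk6, Izumo1 and Catsper3), called spermatid-gate genes here, and macrophage barcodes at least 4 UMIs from at least 3 complement and myeloid genes. Protamine RNA was the opposite case: Prm1, a spermatid gene, was present in all 176 members and in all 248 macrophage barcodes of that depth, and the level of such transcripts in members is read against that.

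A few members carried much RNA of another cell type, and results are therefore given with and without them. Mixed barcodes were defined, after the data had been seen, as those with spermatid-gate genes at 0.2% of UMIs or more, with markers of 6 somatic cell types at 0.3% or more, or with over 100000 UMIs. There were 1, 3 and 1 such members in smoking libraries 1 to 3, against 3, 0 and 0 in control libraries 1 to 3, that is 8 of 176 with 17.8% of all member UMIs. A single barcode of smoking library 2 held 411540 UMIs from 10777 genes, 34.5% of that library's member UMIs, with 1 UMI of Stra8, 16 of the spermatogonial genes and 2164 of the spermatid-gate genes. Of the other barcode classes used below, 21 of 214 Stra8-negative spermatogonia (37.2% of their UMIs) and 10 of 193 early meiotic barcodes (19.21%) were mixed. Spermatid markers, 22 genes in all, summed to 20939, 69856 and 32623 CPM (counts scaled to a total of 1000000 UMIs) in members of smoking libraries 1 to 3, against 19924, 26995 and 21085 CPM in those of control libraries 1 to 3. Without the mixed barcodes they ranged over 19182 to 22205 CPM in smoking libraries and 20530 to 26995 CPM in control libraries. Sertoli markers summed to 232 to 848 CPM in smoking libraries and to 184 to 3102 CPM in control libraries; Fshr, their receptor for follicle-stimulating hormone, was at 0 throughout. Without mixed barcodes they reached at most 274 CPM in smoking libraries and 282 CPM in control libraries. The spermatid-gate genes are all among the 22 spermatid markers, and the Sertoli markers are among the somatic lists of the filter. Lower sums after the filter are thus partly built in.

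**Figure D1:**
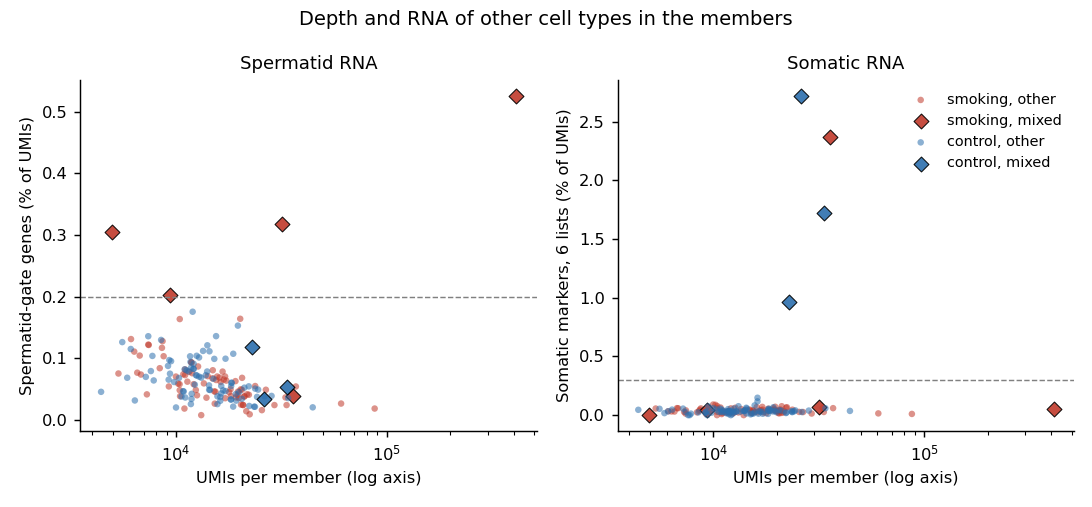
Each mark is 1 member, placed by its total UMIs (horizontal log axis) and by the percent of its UMIs from spermatid-gate genes (left panel) or from markers of 6 somatic cell types (right panel). Colours give the group, diamonds are the 8 mixed barcodes and dashed lines the limits; the barcode of 411540 UMIs lies at the far right.

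Stra8 itself varied widely among the members. Its count had a median of 4 UMIs and a maximum of 30; 50 members had 1 UMI, 41 had 2 to 4, 25 had 5 to 9, 39 had 10 to 19 and 21 had 20 or more. The library medians were 4, 3 and 4.5 UMIs in smoking libraries 1 to 3, against 4, 3 and 5.5 UMIs in control libraries 1 to 3, so members with much and with little Stra8 occurred in every library. Just inside the threshold, the 50 members with 1 Stra8 UMI had a median of 11943 UMIs and 16.5 UMIs of the spermatogonial genes; just outside, the 214 barcodes that met every other condition with no Stra8 UMI had medians of 10347 UMIs and 15 UMIs. A total of 6 members had exactly 4 UMIs of the spermatogonial genes, and 6 barcodes were kept out by having 3. Another 4 barcodes, with a median of 22 Stra8 UMIs and a maximum of 47, were kept out because early meiotic genes equalled or exceeded the spermatogonial ones. Of all 430 barcodes with a Stra8 UMI and at most 20% mitochondrial UMIs, the members are thus a part.

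**Figure D2:**
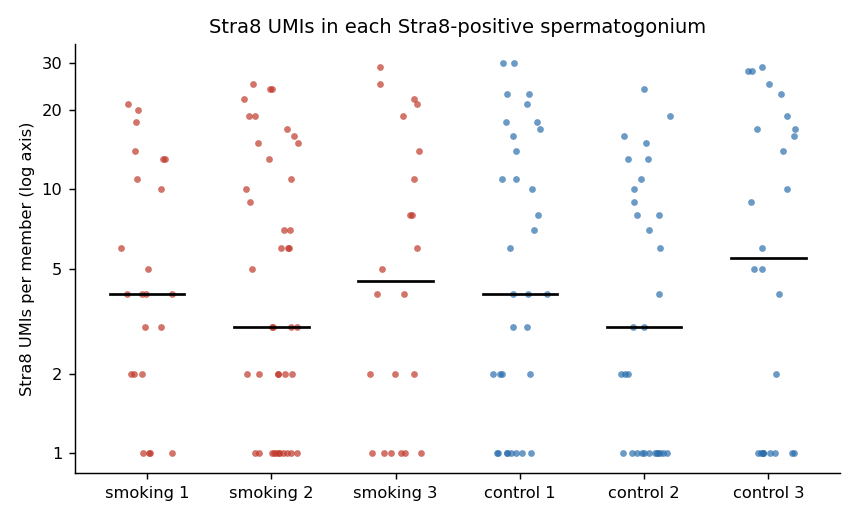
Each point is 1 of the 176 members, placed by its Stra8 UMIs (log axis) in its library, with smoking libraries in red and control libraries in blue; the line is the library median. Every library spans 1 UMI to at least 21 UMIs.

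Members with most Stra8 had lower levels of 9 of 30 mitosis genes and higher levels of 5 of 21 meiotic genes than those with least, once the mixed barcodes were left out. To split the members at equal depth, each was thinned to 4000 UMIs. Those with more than 1 Stra8 UMI left, the median, formed a Stra8-high range of 73 members (7, 18 and 8 in smoking libraries and 13, 13 and 14 in control libraries), and the other 103 the Stra8-low range. Median depth was alike, at 14324 UMIs in Stra8-high and 14390 UMIs in Stra8-low members. The split is a cut through a continuous count, with 49 members exactly at the limit and 16 just above it. Over members with 0, 1, 2 to 3 and 4 or more thinned Stra8 UMIs, the 30 mitosis genes averaged 25.0, 21.7, 18.3 and 16.2 UMIs per 4000, the meiotic genes 15.1, 14.8, 19.23 and 21.1, and the DNA replication genes 13, 15.0, 15.1 and 16.9. Spermatid genes stayed at 107, 106, 105 and 108. Members are not replicates, so these means are a description.

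The test was therefore run over libraries, with edgeR's quasi-likelihood test on UMIs summed per range and library, the library as a block and Benjamini-Hochberg adjustment over all genes. With all members, Stra8 alone, on which the split was made, passed an adjusted p of 0.05, that is 1 of 6104 genes (0.0164%); for 627 genes the unadjusted p was under 0.05, and DESeq2 and limma-voom called 1 and 2 genes. Without smoking library 2, which holds the barcode of 411540 UMIs, 21 genes passed, and without control library 3, 2 genes. Without the mixed barcodes 81 of 5636 genes passed (1.44%), of which 46 were higher in Stra8-high members (0.816%), Stra8 included, and 35 lower (0.621%). The gene values that follow are without mixed barcodes. Leaving out 1 library at a time gave 48 calls (smoking library 3) to 63 calls (smoking library 1), with 52 without smoking library 2 and 53 without control library 3, and without scored doublets but with mixed barcodes Stra8 was again the single call. With each member thinned to 4000 UMIs, 7 of 1693 genes passed (0.413%), 2 of them lower (0.118%).

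Regulators of mitotic exit and the spindle were lower in Stra8-high members. Of 30 mitosis genes tested, 28 had a negative log2 fold, 9 passed as lower and none as higher, with a median of −0.50 against 0.00 over all genes. Ube2c, the ubiquitin-conjugating enzyme of the anaphase-promoting complex (chr2:164769898-164778822), had 143, 127 and 116 CPM in Stra8-high members of smoking libraries 1 to 3 and 124, 113 and 91.3 CPM in those of control libraries 1 to 3. In Stra8-low members it had 221, 330 and 217 CPM in smoking and 198, 230 and 264 CPM in control libraries. The ranges did not overlap, and the log2 fold was −1.10 (SE 0.17, adjusted p = 0.000157). Plk1, the polo-like kinase that drives mitotic entry and exit (chr7:122159439-122169873), averaged 50.5 ± 23.9 CPM in Stra8-high and 121 ± 53.1 CPM in Stra8-low members (SD, n = 6 libraries each), a log2 fold of −1.33 (SE 0.23, adjusted p = 0.00111 by edgeR). It was lower in 6 of 6 libraries, although levels of different libraries overlapped. Aurka, the centrosomal Aurora kinase, averaged 34.1 ± 13.5 CPM in Stra8-high against 90.0 ± 29.6 CPM in Stra8-low members, with a log2 fold of −1.51 (SE 0.27, adjusted p = 0.00127 by edgeR, n = 6). At 4000 UMIs per barcode, Aurka averaged 0.261 UMIs in all members, 0.281 in spermatid and 0.206 in macrophage barcodes. It was seen in 21.6%, 22.1% and 19.8% of them, so its level in members lies near background. Nusap1, a spindle protein (−1.34), Cdc20, an activator of the anaphase-promoting complex (−0.85), and Cenpa, the centromeric histone (−0.97), passed as well. All 6 of these genes stayed past the threshold whichever library was left out. Ccnd1, a G1 cyclin named after its values were seen, was lower too (−0.93). Pou3f1, a transcription factor of spermatogonial stem cells, had a log2 fold of −0.78 (adjusted p = 0.0243 by edgeR), but passed in 2 of 6 omissions and had an adjusted p of 0.123 without control library 3. Genes of DNA replication did not share this direction: 22 of 28 were positive, with a median of 0.15 and no call.

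Of 21 genes of meiotic entry and prophase tested, 5 passed as higher in Stra8-high members and none as lower; 16 had a positive fold, with a median of 0.35. Rec8, the meiotic cohesin subunit (chr14:55618037-55625395), had 28.6, 76.9 and 46.4 CPM in Stra8-high members of smoking libraries and 82.6, 50.3 and 91.3 CPM in those of control libraries. Stra8-low members had 26.7, 25.2 and 44.5 CPM in smoking and 15.0, 27.9 and 43.2 CPM in control libraries. Rec8 was higher in 6 of 6 libraries, by 1.14 on the log2 scale (SE 0.31, adjusted p = 0.0471 by edgeR); it passed in 2 of 6 omissions, with an adjusted p of 0.248 without smoking library 2. Sycp3, which builds the lateral elements of the synaptonemal complex, averaged 444 ± 116 CPM in Stra8-high and 299 ± 61.9 CPM in Stra8-low members (SD, n = 6), a log2 fold of 0.56 (SE 0.13, adjusted p = 0.0123 by edgeR) that was lost without smoking library 2 (0.0810). Syce2, of the central element, averaged 441 ± 35.2 CPM in Stra8-high and 297 ± 45.3 CPM in Stra8-low members and did not overlap between them; its log2 fold was 0.58 (adjusted p = 0.0121 by edgeR; 0.0697 without control library 2). Tex15, needed for meiotic recombination and for silencing of transposons, was higher by 0.47 and passed in 3 of 6 omissions (adjusted p = 0.0929 without smoking library 3). The meiotic calls named here are thus less stable than the mitotic ones named above. Omissions are not given for the other calls of these 2 lists.

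Ly6k and Tex101 encode GPI-anchored proteins of the germ-cell surface that bind each other. Ly6k averaged 155 ± 38.0 CPM in Stra8-high and 74.2 ± 28.3 CPM in Stra8-low members (SD, n = 6), higher in 6 of 6 libraries, by 1.10 on the log2 scale (SE 0.21, adjusted p = 0.00186 by edgeR), and passed in 6 of 6 omissions. At 4000 UMIs per barcode, however, Ly6k averaged 0.295 UMIs in all members and 0.294 in spermatid barcodes. Tex101 was higher in 5 of 6 libraries, by 0.77 (adjusted p = 0.0121 by edgeR; 0.162 without control library 1). Prss50, a testis serine protease, was higher in 4 of 6 libraries, by 0.89 (adjusted p = 0.0258 by edgeR; 0.245 without control library 1). Ccnd2, the D-type cyclin of differentiating spermatogonia, was higher in 6 of 6 libraries, by 1.20, and lost its call without control library 1 (0.172). Together, 10 of 17 tested genes of the differentiating list were positive and these 3 passed. Hist1h1e, a linker histone gene, had a log2 fold of 2.26 (SE 0.31, adjusted p = 1.16e-05 by edgeR), but its level was uneven: 272, 184 and 38.6 CPM in Stra8-high members of smoking libraries and 165, 37.8 and 9.13 CPM in those of control libraries, against 14.0 to 41.2 CPM in Stra8-low members of the 6 libraries. Of the cholesterol synthesis genes 15 of 15 had a positive fold (median 0.29), and 2 passed: Acat2, the cytosolic acetoacetyl-CoA thiolase (1.05, adjusted p = 0.0123 by edgeR; 0.132 without smoking library 2), and Mvd, mevalonate decarboxylase (1.21, adjusted p = 0.0402; 0.344 without smoking library 2). Kit averaged 135 ± 29.8 CPM in Stra8-high and 106 ± 26.2 CPM in Stra8-low members, with a log2 fold of 0.31 (SE 0.20) and an adjusted p of 0.532 by edgeR. Gm4969, the gene of the STRA8 partner MEIOSIN, was at 24.7 CPM in Stra8-high and 6.20 CPM in Stra8-low members. Stra8 itself, which made the split, averaged 1050 CPM in Stra8-high and 189 CPM in Stra8-low members.

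**Figure D3:**
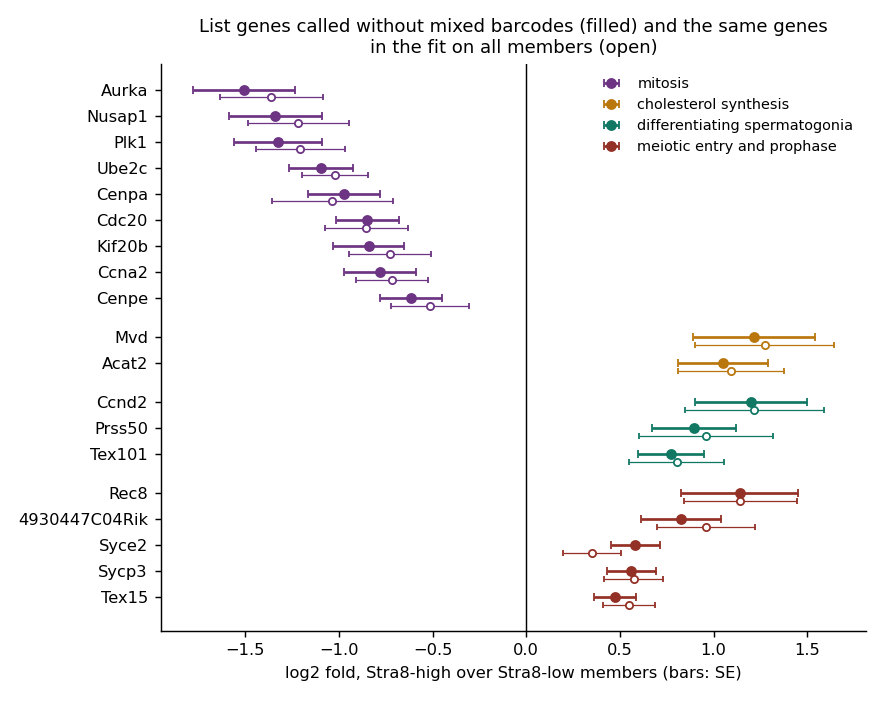
Log2 fold of Stra8-high over Stra8-low members with its standard error, for the genes of 4 lists that passed without mixed barcodes (filled), beside the same genes fitted on all members (open). The mitosis genes lie left of 0 and the others right of it in both fits, but none of the open values passed the adjusted threshold.

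The motifs printed in capitals above were counted in the promoters of the called genes, as a description with no test. Of the 45 genes higher in Stra8-high members besides Stra8, 35 had a promoter window, and 10 of them (28.6%) held the STRA8 motif, among them Prss50, Syce2 and M1ap; 3 (8.57%) held the CHR element and 6 (17.1%) the retinoid receptor half-site. Of the 35 lower genes, 28 had a window, and none held the STRA8 motif, while 11 (39.3%) held the CHR element, among them Plk1, Ube2c, Aurka, Cdc20 and Cenpa; 2 (7.14%) held the half-site. Over all 27025 genes of the promoter table the shares were 9.12%, 20.2% and 18.1% for the STRA8 motif, the CHR element and the half-site. That table holds genes whether expressed or not, whereas the called genes came from the 5636 that passed the expression filter. The gene sets are thus unlike. A gene counted when any of its windows held the motif.

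Compared with Stra8-negative spermatogonia, the members had more RNA of Prss50, Tex101, Ly6k and Rec8 once mixed barcodes were left out. The 214 Stra8-negative barcodes (32, 36 and 28 in smoking and 46, 34 and 38 in control libraries) met the same rule without a Stra8 UMI, so a barcode may be negative by shallow depth: their median was 10347 UMIs against 14364.5 UMIs in members. With all barcodes, 255 of 8675 genes passed edgeR's test (2.94%), 27 higher in members (0.311%) and 228 lower (2.63%). This count hung on single libraries, falling to 1 without smoking library 1, control library 1 or control library 2, to 23 without smoking library 2, and reaching 457 without smoking library 3 and 730 without control library 3. It was 1 with scored doublets removed. Without mixed barcodes 147 of 7756 genes passed (1.9%), 61 higher (0.786%) and 86 lower (1.11%), and 61 of all these calls were shared with the first fit. Leaving out a library then gave 64 calls (control library 1) to 119 calls (control library 2), with 86 and 70 without smoking library 3 and control library 3. With each barcode thinned to 4000 UMIs, 59 of 4018 genes passed (1.47%), 12 of them higher in members (0.299%). Stra8 is among the calls by construction.

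Prss50, Tex101, Ly6k, Bod1l and Rec8 were higher in members of 6 of 6 libraries without mixed barcodes, and each passed whichever library was left out. Prss50 (chr9:110857967-110864629) had 238, 209 and 107 CPM in members of smoking libraries and 158, 133 and 111 CPM in those of control libraries. Stra8-negative spermatogonia had 83.2, 84.6 and 39.6 CPM in smoking and 79.5, 98.9 and 103 CPM in control libraries. All 6 values of the members thus lay above all 6 of the negatives, with a log2 fold of 0.93 (SE 0.15, adjusted p = 0.000161 by edgeR). Tex101 averaged 338 ± 64.1 CPM in members and 217 ± 18.6 CPM in Stra8-negative spermatogonia (SD, n = 6), a log2 fold of 0.61 (adjusted p = 0.000778 by edgeR). Ly6k averaged 105 ± 18.2 CPM in members and 51.2 ± 14.7 CPM in the negatives, a log2 fold of 1.02 (adjusted p = 0.000185 by edgeR), and Bod1l, a protector of replication forks, was higher by 1.34. Rec8 averaged 44.2 ± 14.2 CPM in members and 15.5 ± 6.50 CPM in the negatives, a log2 fold of 1.45 (SE 0.28, adjusted p = 0.00202 by edgeR). With mixed barcodes, the adjusted p was 0.0499 for Prss50, Tex101 and Bod1l, 0.0740 for Ly6k and 0.0643 for Rec8. At 4000 UMIs per barcode, Rec8 was seen in 15.9% of members and 6.54% of the negatives, beside 12.1% of spermatid and 7.26% of macrophage barcodes, so single barcodes do not tell it from background. The same holds for Ly6k, seen in 19.3% of members and 16.8% of the negatives, beside 20.8% of spermatid and 11.3% of macrophage barcodes.

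Of 8 tested markers of undifferentiated spermatogonia, 2 passed as lower in members without mixed barcodes (median −0.22), and none with them (4 positive, median −0.11). Nanos3, an RNA-binding protein of undifferentiated spermatogonia, had 12.0, 9.52 and 9.70 CPM in members of smoking and 11.5, 6.74 and 2.47 CPM in those of control libraries. Stra8-negative spermatogonia had 38.8, 19.9 and 53.7 CPM in smoking and 31.8, 5.50 and 13.2 CPM in control libraries. The members were lower in 5 of 6 libraries, with a log2 fold of −1.53 (adjusted p = 0.0253 by edgeR; 0.145 without smoking library 3; 0.0530 with mixed barcodes). Egr4, a zinc-finger transcription factor, had a log2 fold of −0.97 (adjusted p = 0.0162; 0.139 without smoking library 2). These were the 2 calls. Lin28a, an RNA-binding protein of the same list, had a log2 fold of 0.47 (SE 0.27, adjusted p = 0.446 by edgeR). Of 23 meiotic genes 21 had a positive fold (median 0.23), with Rec8 the single call, and of 19 genes of the differentiating list 14 were positive (median 0.18), with 2 calls. Mitosis genes gave 9 of 30 positive (median −0.15), but 18 of 30 with mixed barcodes (median 0.04), and no call in either fit. The median over all genes is not given for this comparison, so the list medians are a description only. Kit averaged 117 ± 21.6 CPM in members and 89.6 ± 21.7 CPM in the negatives, with a log2 fold of 0.34 (SE 0.14) and an adjusted p of 0.244 by edgeR. Spermatid genes were lower in members: 12 of 21 passed and 2 were positive, with a median of −0.38 without mixed barcodes (5 of 22 and −0.94 with them). Their summed level without mixed barcodes was 19182 to 22205 CPM in smoking and 20530 to 26995 CPM in control members, against 19003 to 44980 CPM and 25654 to 28116 CPM in the negatives; the part of this RNA in the differences above was not tested.

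Against the next stage the members differed broadly: 4939 of 9437 genes (52.3%) passed edgeR's test between members and 193 early meiotic barcodes, 2589 higher in members (27.4%) and 2350 lower (24.9%). Those barcodes held at least 4 UMIs from at least 3 of the early meiotic genes, and more of them than of the spermatogonial genes. Both classes were drawn by stage genes, so the stage difference was built in and the values describe its content. Lmo1, a LIM-domain protein, averaged 136 ± 32.8 CPM in members and 0.420 ± 0.651 CPM in early meiotic barcodes, and Pou3f1 140 ± 41.7 CPM in members and 0.631 ± 1.06 CPM in early meiotic barcodes (SD, n = 6). Gng13, a G-protein subunit, averaged 52.6 CPM in members and was at 0 in early meiotic barcodes. Kit had 122, 55.4 and 111 CPM in members of smoking and 90.5, 141 and 134 CPM in those of control libraries, while early meiotic barcodes had 0, 12.5 and 3.76 CPM in smoking and 2.53, 5.83 and 3.27 CPM in control libraries. The classes did not overlap, and the log2 fold was 4.33 (SE 0.47, adjusted p = 1.65e-05 by edgeR). Dnmt3b, a de novo DNA methyltransferase, averaged 103 ± 30.8 CPM in members and 2.99 ± 3.32 CPM in early meiotic barcodes (SD, n = 6). Gsr, glutathione reductase, averaged 150 ± 27.3 CPM in members and 1.16 ± 1.10 CPM in early meiotic barcodes. Rara, the retinoic acid receptor alpha, averaged 28.03 ± 13.8 CPM in members and 2.09 ± 1.79 CPM in early meiotic barcodes, a log2 fold of 3.58 (SE 0.43, adjusted p = 3.04e-05 by edgeR).

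By list, 18 of 31 DNA replication genes passed as higher in members and 2 as lower (median log2 fold 0.77, against 0.02 over all genes). Mcm2, of the replicative helicase, averaged 111 ± 32.2 CPM in members and 4.27 ± 2.83 CPM in early meiotic barcodes, and Tyms, thymidylate synthase, 62.9 ± 19.8 CPM and 2.20 ± 2.45 CPM in the same order. Of 23 cholesterol synthesis genes 17 passed as higher and 1 as lower (median 1.23); Dhcr7, the last reductase of the pathway, had 127 UMIs in members and 3 in early meiotic barcodes. Of 14 retinoid genes 8 passed as higher and 2 as lower, and of 19 oxidative stress and smoke response genes 11 as higher and none as lower (median 1.04). The mitosis list was split, with 16 of 30 genes higher and 10 lower. Meiotic genes were lower in members, 23 of 31 against 3 higher (median −1.40). Sycp3 averaged 323 ± 62.5 CPM in members and 2589 ± 451 CPM in early meiotic barcodes, a log2 fold of −3.06 (SE 0.15), and Hormad1, a chromosome axis protein, 57.6 ± 18.2 CPM and 723 ± 151 CPM, a log2 fold of −3.69 (SE 0.21); the edgeR adjusted p was 1.26e-07 for Sycp3 and 2.25e-07 for Hormad1 (n = 6 libraries). Tex101 and Ly6k, higher in members than in Stra8-negative spermatogonia, were higher still in early meiotic barcodes, at 308 ± 60.7 CPM in members against 1973 ± 372 CPM for Tex101 and 96.9 ± 19.3 CPM against 1128 ± 189 CPM for Ly6k. Rec8 did not follow that order. Without mixed barcodes it averaged 62.7 CPM in Stra8-high members, 30.4 CPM in Stra8-low members, 15.5 CPM in Stra8-negative spermatogonia and 9.76 CPM in early meiotic barcodes. Plk1 stood at 50.5, 121, 109 and 17.9 CPM and Ube2c at 119, 244, 194 and 78.0 CPM in those 4 classes. At 4000 UMIs per barcode, mixed ones included, Rec8 averaged 0.0701 UMIs in Stra8-negative spermatogonia and 0.0415 in early meiotic barcodes. It averaged 0.0766 in macrophage and 0.14 in spermatid barcodes, so the lower end of its order lies at background.

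**Figure D4:**
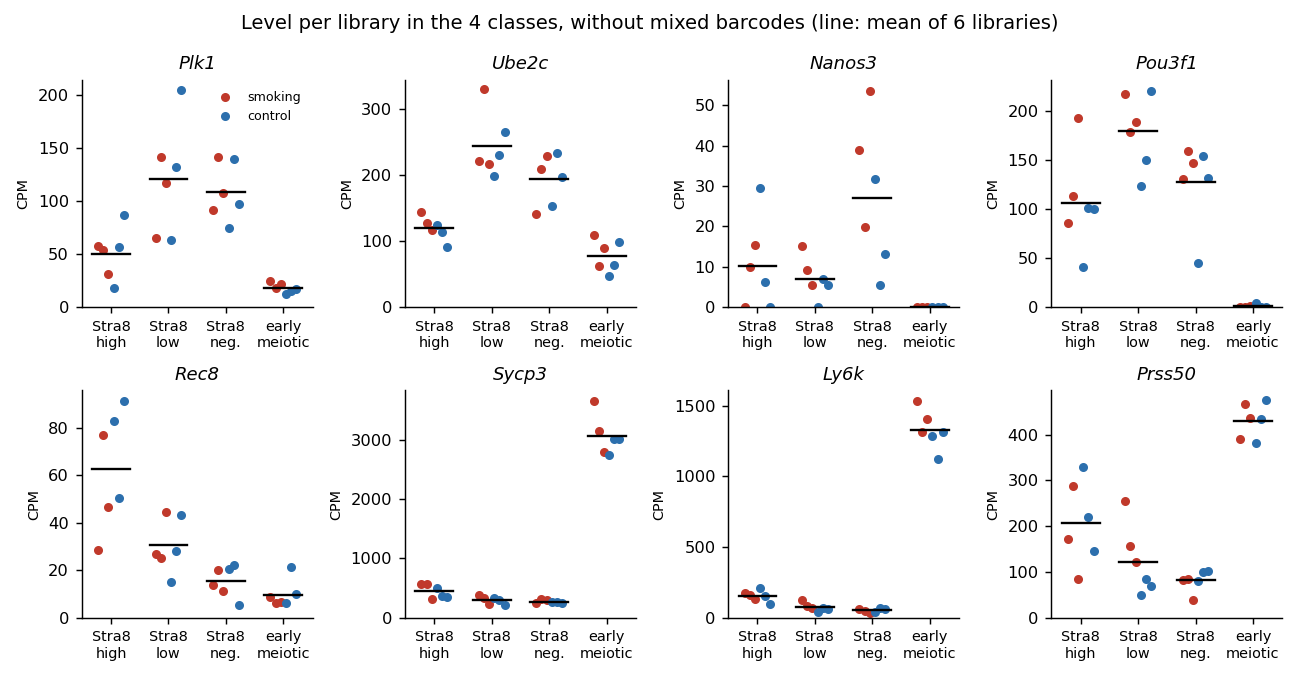
Level of 8 genes in CPM, without mixed barcodes, in Stra8-high members, Stra8-low members, Stra8-negative spermatogonia and early meiotic barcodes; each point is 1 of 6 libraries (smoking red, control blue) and the line their mean. Plk1 and Ube2c are lower in Stra8-high than in Stra8-low members, Rec8 is highest in Stra8-high members, and Sycp3 and Ly6k are highest in early meiotic barcodes.

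Smoke exposure was compared over the 3 smoking and 3 control libraries, where an exact two-sided permutation test cannot go below p = 0.1. Members made up 1.16%, 1.69% and 0.755% of the barcodes with at least 4000 UMIs in smoking libraries 1 to 3, against 2.11%, 1.81% and 1.17% in control libraries 1 to 3. The groups overlapped (exact permutation p = 0.2). As a share of all spermatogonia that met the rule with or without Stra8, members made up 41.8%, 53.2% and 44.0% in smoking libraries and 41.8%, 47.7% and 40.6% in control libraries (exact permutation p = 0.5). This share did not overlap between the groups with each barcode thinned to 4000 UMIs, at 30.9%, 33.8% and 32.0% in smoking and 30.4%, 30.8% and 29.7% in control libraries. It did not overlap either with at least 2 Stra8 UMIs required, at 37.3%, 45.5% and 36.4% in smoking and 35.2%, 35.8% and 30.9% in control libraries (exact permutation p = 0.1 in both, the smallest possible). The groups overlapped under the other 4 alternatives, and with at least 6 UMIs of the spermatogonial genes the difference of means was −1.20 percentage points, against 2.99 by the rule as given and −0.454 without smoking replicate 2. Stra8-high members were 30.4%, 43.9% and 36.4% of members in smoking libraries, against 39.4%, 41.9% and 53.8% in control libraries (exact permutation p = 0.3). Stra8 itself, a rule gene, stood at 483, 261 and 551 CPM in members of smoking libraries and at 572, 420 and 658 CPM in those of control libraries, again overlapping. Of 26 such per-library measures, 3 did not overlap between the groups, each at the smallest possible exact p of 0.1 and at 0.743 after Benjamini-Hochberg adjustment over the 26. The median number of genes per member at 4000 UMIs was 2179, 2209 and 2212.5 in smoking libraries, against 2233, 2257 and 2231.5 in control libraries. The median share of mitochondrial UMIs was 6.33%, 6.09% and 7.01% in smoking libraries, against 5.86%, 6.02% and 5.94% in control libraries. Both also separated the groups without mixed barcodes. With at least 2 Stra8 UMIs required, the genes per member still did not overlap, but the mitochondrial shares did. Those shares were then 6.34%, 6.57% and 6.90% in smoking and 5.68%, 6.56% and 6.74% in control libraries (exact permutation p = 0.6). Markers of peritubular myoid cells, the contractile cells around the tubules, summed to 62.3, 169 and 73.3 CPM in smoking members against 36.6, 58.4 and 47.0 CPM in control members; Acta2 and Myh11, which define those cells, were at 0. Without mixed barcodes the marker sums overlapped, at 63.2, 54.4 and 32.3 CPM in smoking members against 32.1, 58.4 and 47.0 CPM in control members. These markers are also among the somatic lists that define mixed barcodes.

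No gene passed between smoking and control members in edgeR's quasi-likelihood test, 0 of 6875 (0%), nor in DESeq2 or limma-voom. Before adjustment p was under 0.05 for 462 genes by edgeR, 387 by DESeq2 and 327 by limma-voom, and the CPM of 761 genes (11.1%) did not overlap between the groups. Non-overlap of 3 and 3 libraries has an exact permutation p of 0.1, so that share is near the one expected with no effect. The values of each library rest on 22 to 41 barcodes. On simulated counts the edgeR test recovered 43% of genes changed by a log2 fold of 1, so many changes of that size would be missed. Only genes with higher counts were changed in that simulation. All genes had a single dispersion (spread between libraries beyond counting noise), below the 0.0713 fitted to the real counts. The share recovered in the real data may thus be lower. Without mixed barcodes the count was again 0, of 6933 genes, with 324 under 0.05 before adjustment. There it became 2 genes without control library 2, and 1 without smoking library 3. That gene was Ptcra, the pre-T-cell receptor alpha chain, named after its values were seen, with a log2 fold of 1.70 (adjusted p = 0.277 by edgeR) over all libraries and of 2.01 (adjusted p = 0.00714) in that omission. Genes with the smallest p are given as values. Aldh1a3, an enzyme that makes retinoic acid (chr7:66390890-66427517), had 17.8, 4.19 and 11.7 CPM in members of smoking libraries, against 42.4, 26.9 and 56.9 CPM in those of control libraries. Every smoking value lay below every control value, with a log2 fold of −2.06 (SE 0.49) from 72 UMIs in all and an adjusted p of 0.695 by edgeR. Without mixed barcodes the log2 fold was −1.92 (SE 0.43, adjusted p = 0.277), and over the omissions of 1 library it ran between −2.52 and −1.46. Mak16, a ribosome assembly factor, had 50.4, 36.9 and 44.0 CPM in smoking members and 98.2, 83.1 and 89.0 CPM in control members, with a log2 fold of −0.92 (adjusted p = 0.695 by edgeR; 0.987 and −0.76 without mixed barcodes). Zzef1, a zinc-finger protein, had 17.8, 19.3 and 20.5 CPM in smoking and 52.0, 40.4 and 51.9 CPM in control members. Dnajc5g, a cysteine string protein of the testis, had 23.7, 70.5 and 52.8 CPM in smoking and 19.3, 11.2 and 9.89 CPM in control members, and fell under the expression filter without mixed barcodes. Vasp, an actin regulator, had a log2 fold of 1.45, and of 0.78 without mixed barcodes.

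**Figure D5:**
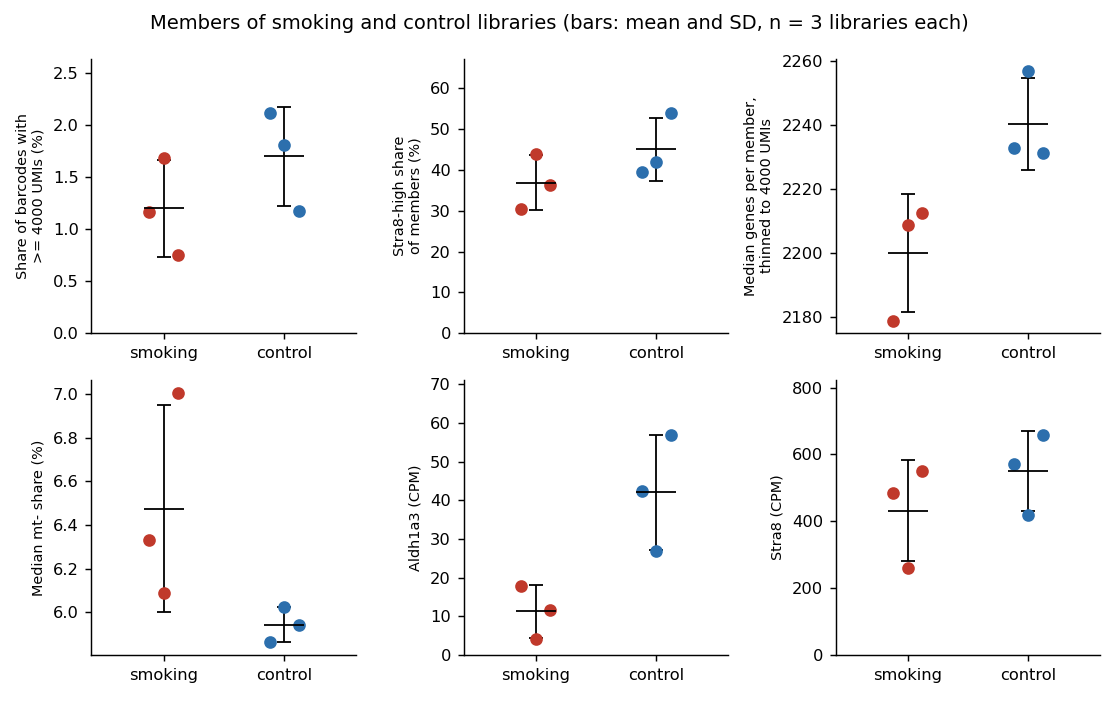
Per-library values of members in smoking (red) and control (blue) libraries with mean and SD (n = 3 each): share of barcodes, Stra8-high share, genes per member at 4000 UMIs, mitochondrial share, and Aldh1a3 and Stra8 in CPM. The axes of genes per member and mitochondrial share do not start at 0; in those 2 panels and for Aldh1a3 the groups do not overlap.

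Cyp1a1, the classic target of the aryl hydrocarbon receptor, had 0 UMIs in members, Nqo1 had 1 UMI in all libraries, and Cyp1b1 had 12 UMIs. Hmox1, heme oxygenase 1, had 38.6, 21.8 and 29.3 CPM in smoking members and 32.7, 29.2 and 17.3 CPM in control members, overlapping. Over the 17 oxidative stress and smoke response genes tested, 7 had a positive fold (median −0.06), and 10 without mixed barcodes (median 0.01). None of the lists below held a call. Of 30 DNA replication genes 5 had a positive fold (median −0.23; −0.16 without mixed barcodes), of 12 retinoid genes 4 (−0.27; −0.14 without), of 19 cholesterol synthesis genes 15 (0.19; 0.15 without) and of 21 meiotic genes 10 (−0.03; 0.07 without), beside a median of 0.02 over all genes. All 21 spermatid genes had a positive fold, with a median of 1.01, whereas 2 of 20 were positive without mixed barcodes, with a median of −0.18. Tnp2, a spermatid nuclear protein gene, shows this: 2592, 12187 and 5090 CPM in smoking members against 2496, 3422 and 2782 CPM in control members, with a log2 fold of 1.42, and −0.26 without mixed barcodes. Mixed barcodes were defined in part by genes of the spermatid list, so this change is partly built in. Rara had 23.7, 16.8 and 17.6 CPM in smoking members and 53.9, 31.4 and 24.7 CPM in control members, and Tyms 59.3, 32.7 and 49.8 CPM in smoking against 80.9, 85.3 and 69.2 CPM in control members. Neither of these passed: the log2 fold was −0.82 for Rara with and without mixed barcodes, and for Tyms −0.66 with and −0.55 without them. Npm1, a nucleolar chaperone, had 1643, 902 and 1660 CPM in smoking members and 1358, 1285 and 1333 CPM in control members, with smoking library 2 on the other side of the control values from the rest. These CPM include the mixed barcodes, which held 38.3% of the member UMIs of smoking library 2 and so lower its plain CPM of spermatogonial transcripts. Without mixed barcodes the log2 fold of Npm1 was 0.21, and 0.16 to 0.33 over omissions of 1 library, with no call.

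Whether the smoking effect differed between members and Stra8-negative spermatogonia was tested as an interaction. None of 8675 genes passed (0%) by edgeR, DESeq2 or limma-voom, while 975, 404 and 1116 genes had a p under 0.05 before adjustment. The edgeR count was 7 without control library 1 and 360 without control library 2. On simulated counts this test recovered 11% of genes changed by a log2 fold of 1, so most changes of that size would be missed. Here too only genes with higher counts were changed. Without mixed barcodes 1 of 7756 genes passed (0.0129%), the unnamed transcript gene Gm26772, which had 0, 17.7 and 0 CPM in smoking members against 45.8, 0 and 2.47 CPM in control members. Its log2 difference of −5.45 (SE 1.00, adjusted p = 0.0181 by edgeR) rests on few UMIs and was named after its values were seen. The call was lost in 3 of 6 omissions of a library, which were smoking library 3, control library 1 and control library 3; without smoking library 1 there were 4 calls.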

How the data were processed

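The files were raw UMI count matrices (30905 genes) deposited by the authors, 1 per library; per the file headers they came from Cell Ranger 3.1.0. Version 7.1.0 of it is what the submitters' processing notes give, beside mm10 and CASAVA 1.8. Each count is a UMI in 1 barcode. The members and gene lists were chosen with earlier results of these data known. Barcodes of a class were summed per library and tested with edgeR 4.0.16 (TMM, filterByExpr, quasi-likelihood test, Benjamini-Hochberg adjustment, adjusted p under 0.05) in R 4.3.3; comparisons of classes had the library as a block. A standard error is the log2 fold divided by the root of F. DESeq2 1.42.0 and limma 3.58.1 were alternatives. CPM are UMIs scaled to a total of 1000000 over the summed barcodes. Gene positions are from GENCODE M21 on GRCm38 and promoters from RefSeq. Named genes were, per comparison of classes, the 12 largest rises and falls that passed with at least 50 CPM in the higher class and the same sign in 6 libraries, and between groups the 5 smallest p at 10 CPM or more; added to these were up to 5 genes per list, Kit, Npm1 and 6 smoke response genes. Scored doublets, from simulated doublets at 0.8% per 1000 barcodes, were removed only as an alternative. The edgeR test of each comparison was also run on simulated counts. Every gene was drawn with the same dispersion and only genes with higher counts were changed, so the shares recovered do not cover low genes. A log2 fold of 1 was recovered for 43% of changed genes between smoking and control members, and for 11% in the interaction. For a log2 fold of 2 these shares were 98.9% and 78%. Summed UMIs per library limit the precision: 337170 to 1191959 in members. Per-library measures were compared by an exact permutation test over 20 assignments.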

Additional observations from a re-analysis of the deposited data

How the results depend on the processing

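The mixed barcodes were defined, and all fits without them added, after seeing the data. Between smoking and control members the count of 0 calls became 259 when every gene with at least 1 UMI was tested (254 higher), held at 0 to 0 over omissions of 1 library, and was 0 to 2 over omissions without mixed barcodes. Against Stra8-negative spermatogonia the 255 calls became 551 by DESeq2, 673 by limma-voom, 1604 with every gene tested, 1549 with members of at least 2 Stra8 UMIs, 59 at 4000 UMIs per barcode, 1 without scored doublets, 147 without mixed barcodes, and 1 to 730 over omissions (64 to 119 without mixed barcodes). Against early meiotic barcodes the 4939 calls became 2048 at 4000 UMIs per barcode, 4183 to 5029 over omissions, and 5499 without mixed barcodes (5106 to 5369 over omissions). Between Stra8-high and Stra8-low members the 1 call became 2 by limma-voom, 70 with every gene tested, 2 with at least 2 Stra8 UMIs, 7 at 4000 UMIs, 81 without mixed barcodes, and 1 to 21 over omissions (48 to 63 without mixed barcodes). For the interaction, 0 calls became 371 with every gene tested, 1 without mixed barcodes, and 0 to 360 over omissions (0 to 4 without mixed barcodes).

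Some list medians changed sign. The spermatid list shares genes with the filter for mixed barcodes, so its changes without them are partly built in. Between smoking and control members the spermatid list stood at 1.01, and at −0.18 without mixed barcodes. At 4000 UMIs per barcode in that comparison, the replication list stood at 0.048, the cholesterol list at −0.017 (3 genes left) and the retinoid list at 0.014 (2 genes left). Between Stra8-high and Stra8-low members the spermatid list, at −0.47, stood at 0.034 at 4000 UMIs and at 0.14 without mixed barcodes. Against Stra8-negative spermatogonia the mitosis list, at 0.04, stood at −0.15 without mixed barcodes and at −0.08 at 4000 UMIs. Members as a share of deep barcodes differed by −0.50 percentage points between smoking and control libraries, and by −1.57 with a minimum of 6000 UMIs. The difference in median UMIs was 760, and 2432 with at least 6 UMIs of the spermatogonial genes; that in the Stra8-high share was −8.16 percentage points, and −18.6 with at least 2 Stra8 UMIs. The members' share of spermatogonia differed by 2.99 percentage points, and by 1.95 at 4000 UMIs and 5.70 with at least 2 Stra8 UMIs, where the groups did not overlap. The cause was not tested for any of these. No paired analysis was possible because the labels number no library within its group, and 1 to 3 are names given here in the order of deposit, which pair nothing; comparisons of classes kept the library as a block. With 22 to 41 members a library, low genes carry few UMIs and their folds are imprecise.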
